A study of Mus musculus with 24 samples.

Results

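Non-endothelial (non-EC) cells of *Brg1/Chd4-ECdko* livers were compared with those of *Chd4-ECko* livers at E12.5, so that both groups lacked endothelial CHD4 and differed in endothelial BRG1. The comparison used 6 of the 24 RNA-seq samples of the series, namely all samples that the labels give as non-EC cells of these genotypes, with 3 embryos each. The other 18 samples were non-EC cells of controls and *Brg1-ECko* embryos and liver sinusoidal endothelial cells (LSECs) of all 4 genotypes. *Chd4-ECko* embryos were *Chd4* fl/fl and *Brg1* fl/+, and *Brg1/Chd4-ECdko* embryos were fl/fl for both genes, and all of them carried VE-cadherin-Cre. *Brg1-ECko* embryos were *Brg1* fl/fl and *Chd4* fl/+ with the same Cre, and controls had floxed alleles but no Cre. The background of the mice was mixed. VE-cadherin-Cre deletes floxed exons in endothelium and, by the study's account, in a part of the blood cells of the liver. Non-EC cells are what remained of a digested liver after red cell lysis and removal of CD146+ cells on beads, so that each library holds many cell types. The question was what differs outside the endothelium when endothelial BRG1 is lost in addition to CHD4, a genotype that the study compared to learn why these embryos outlive *Chd4-ECko* embryos.

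CHD4 is the ATPase of the NuRD chromatin remodelling complex, and BRG1, encoded by *Smarca4*, is an ATPase of the SWI/SNF (BAF) complex. The liver of this age is the main blood-forming organ of the mouse embryo. Hepatoblasts, the precursors of hepatocytes and bile duct cells, secrete plasma proteins there, and erythroblasts, macrophages, megakaryocytes and stem and progenitor cells mature around sinusoids lined by LSECs. Red cells made first in the yolk sac carry embryonic globins, and those made in the liver carry adult globins.

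Levels are TPM, in which the reads of a gene are divided by its length and each library is scaled to the same total. Values of 3 libraries are given in the order of replicates 1, 2 and 3, and where 2 sets of 3 are set against each other with no genotype named, *Chd4-ECko* stands first. A difference is the log2 fold change of *Brg1/Chd4-ECdko* against *Chd4-ECko* on the log2(TPM + 1) scale, tested with limma in a model of the 12 non-EC libraries, with p-values adjusted over all genes tested. Markers of the fraction were checked against the label. The hepatoblast gene *Afp* had 15779, 11340 and 11766 TPM in *Chd4-ECko* cells, against 13655, 10613 and 11422 TPM in *Brg1/Chd4-ECdko*, and the erythroid gene *Car2* had 607, 732 and 959 TPM against 661, 771 and 832 TPM. *Stab2*, a scavenger receptor of LSECs, had 0.947, 0.683 and 0.497 TPM against 0.717, 0.119 and 0.502 TPM, and *Cdh5*, the gene for VE-cadherin, had 13.4, 8.55 and 9.91 TPM against 10.9, 4.93 and 7.16 TPM. Endothelial transcripts were low and not absent.

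The targeted genes were present at similar levels in both groups, in cells that for the most part are no targets of the Cre. *Chd4* (ENSMUSG00000063870, chromosome 6 from 125072944 to 125107554) had 353, 328 and 328 TPM in *Chd4-ECko* cells, against 377, 362 and 379 TPM in *Brg1/Chd4-ECdko*. The *Brg1/Chd4-ECdko* values lay above those of *Chd4-ECko*, with a log2 fold change of 0.15 (standard error 0.07) and a limma adjusted p of 0.253. *Smarca4* (ENSMUSG00000032187, chromosome 9 from 21527398 to 21615526) had 161, 161 and 174 TPM against 169, 162 and 163 TPM, overlapping between the groups, with a difference of -0.01 (95% confidence interval -0.17 to 0.15). TPM of a whole gene include transcripts without the floxed exons.

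Of 12223 genes tested, 0 (0%) had an adjusted p under 0.05 and 0 (0%) were DEGs, which also need a log2 fold change above 1 in size. The smallest limma adjusted p was 0.217. Unadjusted p-values under 0.05 were found for 2668 genes (21.8%), of which 1911 (15.6% of those tested) had higher and 757 (6.19%) lower means in *Brg1/Chd4-ECdko*. The groups did not overlap for 2202 genes (18.0%), 1332 higher (10.9%) and 870 lower (7.12%). The number of calls rested on 1 library. Without *Chd4-ECko* replicate 1, 3943 of 12180 genes (32.4%) had an adjusted p under 0.05, 2686 of them higher (22.1%) and 1257 lower (10.3%) in *Brg1/Chd4-ECdko*, and 861 were DEGs. With any of the other 5 libraries left out the number was 0. In 3773 of the 3943 genes, *Chd4-ECko* replicate 1 lay closer to the mean of *Brg1/Chd4-ECdko* than to the mean of *Chd4-ECko* replicates 2 and 3. These genes were called with that library left out, a choice that favours such a position, and the share over all genes was not counted. Across genes, its correlation with *Brg1/Chd4-ECdko* replicate 1 was 0.994, and with its own group's replicates 0.951 and 0.9748.

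**Figure D1:**
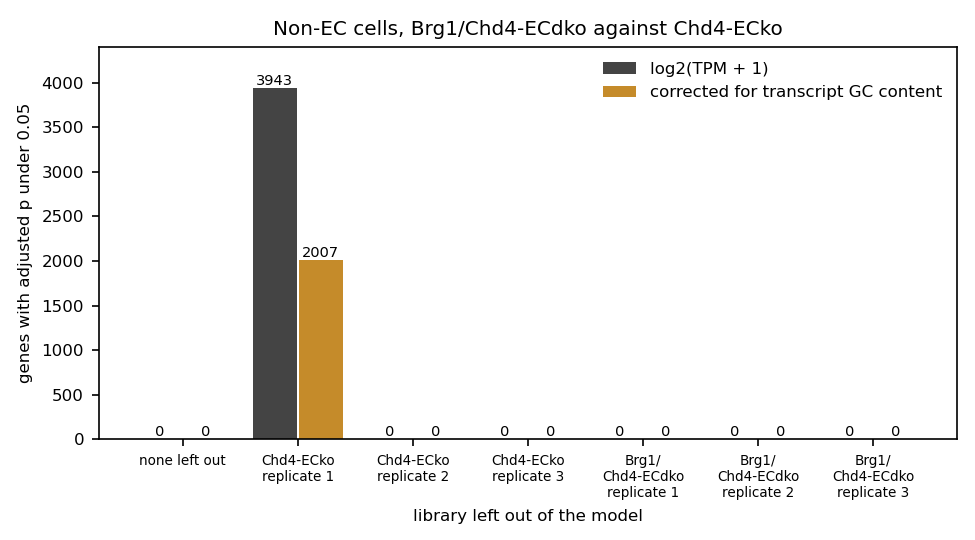
Number of genes with a limma adjusted p under 0.05 in non-EC cells of *Brg1/Chd4-ECdko* against *Chd4-ECko*, with no library or 1 library left out (x axis), before and after a correction for transcript GC content. Only the bars without *Chd4-ECko* replicate 1 differ from 0, at 3943 and 2007 genes.

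The *Chd4-ECko* libraries were the most unlike each other, and the libraries that stood apart also differed in base composition. Correlations with replicates of the own group were 0.951 to 0.987 for *Chd4-ECko* replicate 3, and at least 0.979 in each of the other 3 genotypes. Mitochondrial genes took 7.37%, 3.43% and 2.33% of the TPM in *Chd4-ECko* and 6.65%, 6.43% and 6.62% in *Brg1/Chd4-ECdko*. In the quintile of genes with the lowest transcript GC content, the median log2 difference from the control mean was -0.04, -0.53 and -0.89 in *Chd4-ECko* and -0.03, 0.07 and -0.13 in *Brg1/Chd4-ECdko*. Across the tested genes, the log2 fold change had a Spearman correlation of -0.59 with GC content and of 0.40 with transcript length, in which the points share the same 6 libraries. Its median ran from 0.45 in the lowest to -0.14 in the highest quintile of GC content. After a correction of each library for GC content, chosen after seeing the data, 0 genes were called, 1129 (9.24%) had an unadjusted p under 0.05 with higher and 852 (6.97%) with lower values, 1981 (16.2%) in all, and 2007 (16.5%) were called without *Chd4-ECko* replicate 1. Y-linked genes differed between embryos of 1 group, with a mean log2(TPM + 1) of 3.31, 2.41 and 0.664 in *Chd4-ECko* and 2.68, 0.351 and 0.216 in *Brg1/Chd4-ECdko*, and with their level as a covariate 0 genes were called. *Chd4-ECko* replicate 2 lay between the others of its group, and *Brg1/Chd4-ECdko* replicate 1 was at a similar level, while controls were at 3.74, 4.12 and 3.83. Whether either library holds RNA of more than 1 embryo was not tested. The part of base composition, mitochondrial share or sex of the embryos in the results on single genes was not tested.

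**Figure D2:**
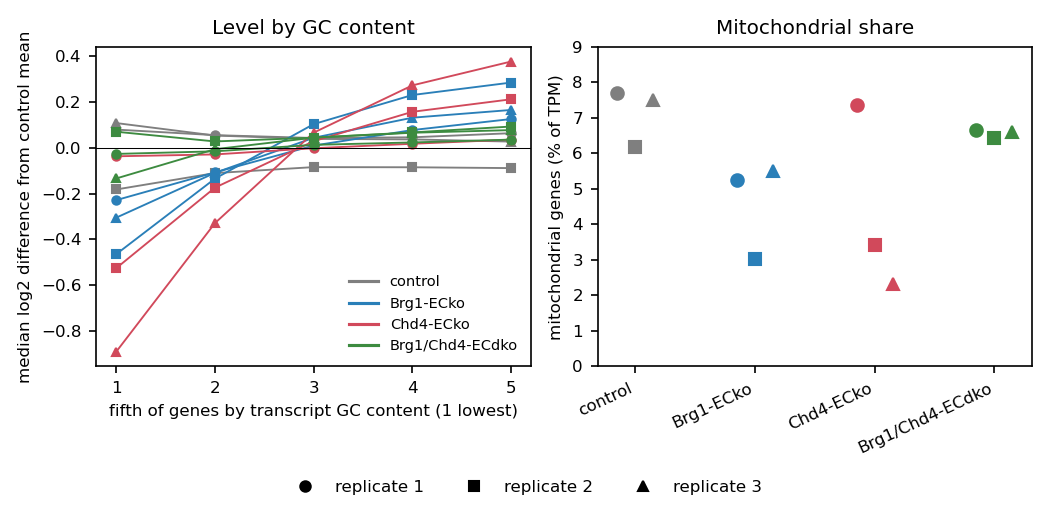
Left, median log2 difference from the mean of the 3 controls (y axis) for quintiles of genes by transcript GC content (x axis), 1 line per non-EC library. Right, share of TPM taken by mitochondrial genes. *Chd4-ECko* replicates 2 and 3 have the lowest values in the lowest GC quintile, -0.53 and -0.89, and mitochondrial shares of 3.43% and 2.33%, while *Chd4-ECko* replicate 1 lies with the *Brg1/Chd4-ECdko* libraries.

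The embryonic globin genes had the lowest median log2 fold change of the 25 lists. *Hbb-bh1*, *Hbb-y* and *Hba-x* encode the β-like and α-like chains of hemoglobin in the first red cells, and all of them had lower means in *Brg1/Chd4-ECdko*. The 150 bases before the start of each canonical transcript in the GENCODE annotation of GRCm39 are printed 5′ to 3′ on the strand of the gene, since these genes were high in the same libraries. Capitals mark 3 letter patterns known from promoters of globin and other genes, searched on either strand with no overlap between them. These are CACCC, which KLF factors bind, the CCAAT box and ATAAA, letters that also occur in the TATA box. *Hba-x* lies on the forward strand with its window at chr11:32226250-32226399, and *Hbb-bh1* and *Hbb-y* lie on the reverse strand at chr7:103492372-103492521 and chr7:103502424-103502573.
Hba-x: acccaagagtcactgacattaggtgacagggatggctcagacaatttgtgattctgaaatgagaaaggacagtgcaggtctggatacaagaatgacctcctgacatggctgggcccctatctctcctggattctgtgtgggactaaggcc
Hbb-bh1: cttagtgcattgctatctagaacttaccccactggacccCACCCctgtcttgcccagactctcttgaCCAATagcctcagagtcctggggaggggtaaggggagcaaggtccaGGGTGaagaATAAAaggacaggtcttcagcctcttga
Hbb-y: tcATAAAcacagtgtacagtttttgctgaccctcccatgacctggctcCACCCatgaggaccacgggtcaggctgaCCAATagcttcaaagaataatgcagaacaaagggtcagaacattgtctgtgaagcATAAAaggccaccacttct
CACCC stood in the windows of *Hbb-bh1* and *Hbb-y* and in 41.2% of the 12221 windows of tested genes. The CCAAT box stood in the same pair and in 28.6% of all windows. The pattern ATAAA stood in the pair and in 15.2% of all windows. It began 28 bases before the start in *Hbb-bh1*, and 148 and 19 bases before it in *Hbb-y*. AGATAA, a pattern of GATA factor sites, was in 3.66% of all windows and in none of these. The window of *Hba-x* held none of the 4 patterns. These are matches of letters, and binding was not measured.

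*Hbb-y* (ENSMUSG00000052187, chromosome 7 from 103500956 to 103502423) had 30.5, 135 and 80.5 TPM in *Chd4-ECko* cells, against 13.3, 19.5 and 23.5 TPM in *Brg1/Chd4-ECdko*. Every *Brg1/Chd4-ECdko* library lay below every *Chd4-ECko* library, and the log2 fold change was -1.87 (standard error 0.54) with a limma adjusted p of 0.217. Controls had 5.69, 3.16 and 2.03 TPM and *Brg1-ECko* had 15.96, 11.1 and 4.14 TPM, so that the double knockout lay between *Chd4-ECko* and control. *Hba-x* (ENSMUSG00000055609, chromosome 11 from 32226400 to 32228116) had 23.8, 208 and 162 TPM in *Chd4-ECko*, 19.4, 28.8 and 31.5 TPM in *Brg1/Chd4-ECdko* and 12.2, 5.41 and 4.27 TPM in controls. *Chd4-ECko* replicate 1 lay within the range of the double knockout, and the difference was -1.81 (standard error 0.68). *Hbb-bh1* (ENSMUSG00000052217, chromosome 7 from 103490844 to 103492371) had 21.4, 149 and 107 TPM in *Chd4-ECko*, 21.4, 30.6 and 45.2 TPM in *Brg1/Chd4-ECdko* and 12.03, 10.4 and 3.3995 TPM in controls, with a difference of -1.16 (standard error 0.68). For both genes, replicates 2 and 3 of *Chd4-ECko* were high and replicate 1 was not. Without replicate 1 all 3 genes passed the test, at -2.45 for *Hbb-y* (limma adjusted p = 0.00532), -2.77 for *Hba-x* (adjusted p = 0.00375) and -1.99 for *Hbb-bh1* (adjusted p = 0.0172). None of the 3 passed with *Chd4-ECko* replicate 2 or 3 left out. Over the libraries left out in turn, the difference was -2.45 to -1.39 for *Hbb-y*, -2.77 to -1.23 for *Hba-x* and -1.99 to -0.62 for *Hbb-bh1*, each smallest in size without *Chd4-ECko* replicate 2. The list's median was -1.81 over 3 genes, against 0.04 over all genes, and -1.7 after the GC correction. Without *Chd4-ECko* replicate 2, the library with the highest values, it was -1.23. LSEC libraries had 102, 789 and 328 TPM of *Hbb-bh1* in *Chd4-ECko*, against 129.6, 135 and 146 TPM in *Brg1/Chd4-ECdko*. A difference between the fractions in this contrast was not detected for *Hbb-bh1* (limma adjusted p = 0.993). Globin genes resemble each other, so that reads could be shared among them. In these bulk samples, fewer cells of a type and less RNA per cell cannot be told apart.

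Adult globins varied more between embryos than between the groups. *Hbb-bs* had 885, 941 and 3642 TPM in *Chd4-ECko* cells, against 659, 1337 and 2989 TPM in *Brg1/Chd4-ECdko*, and *Hba-a1* had 776, 1023 and 2788 TPM against 632, 972 and 1245 TPM. Replicate 3 was the highest library of its group for both genes. *Hbb-bt* had 780.2, 1162 and 3435 TPM against 656, 924 and 312 TPM, with a difference of -1.35 (standard error 0.77). The list of 4 genes had a median of -0.55, which was 0.01 without *Chd4-ECko* replicate 3.

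**Figure D3:**
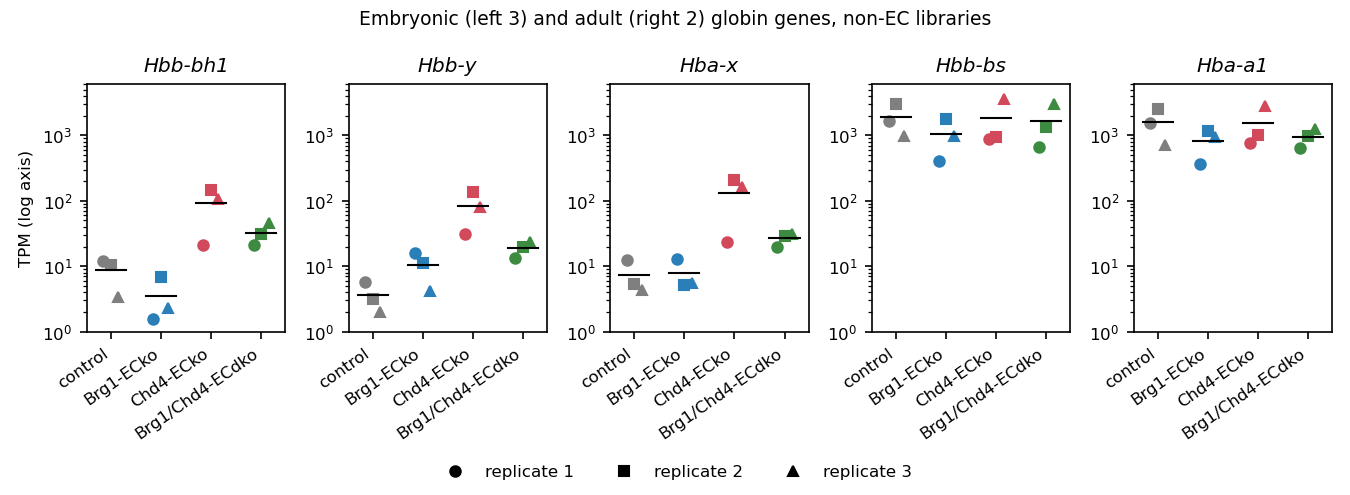
TPM (log axis) of embryonic (*Hbb-bh1*, *Hbb-y*, *Hba-x*) and adult (*Hbb-bs*, *Hba-a1*) globin genes in the 12 non-EC libraries by genotype, with the group mean as a line. *Chd4-ECko* replicates 2 and 3 lie above all other libraries for the embryonic genes, and adult genes overlap between the genotypes.

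Of 29 erythroid genes tested, 2 had an unadjusted p under 0.05 in the higher direction and 0 in the lower one (median -0.09). These are 6.897% and 0% of the list, against 15.6% and 6.19% of all genes. With *Chd4-ECko* replicate 1 left out, 2 were called higher and 5 lower, against 22.1% and 10.3% of all genes. The median was then -0.29, while without replicate 3 it was 0.07. With the GC correction and without replicate 1, 2 were called higher and 1 lower, where 1043 and 964 of 12178 genes were. The median in that setting was -0.35. *Tfrc*, the transferrin receptor that takes up iron, had 374, 168 and 114 TPM in *Chd4-ECko* cells, against 433, 397 and 407 TPM in *Brg1/Chd4-ECdko*, a difference of 1.09 (standard error 0.32). The groups did not overlap, and *Chd4-ECko* replicate 1 was the library of its group closest to the double knockout. After the GC correction the difference was 0.55. *Cpox*, an enzyme of heme synthesis, had 722, 879.5 and 1104 TPM against 807, 854 and 784 TPM, which overlapped. *Alad*, *Urod* and *Tmem14c*, further genes of the pathway, had differences of -0.34, -0.35 and -0.17. Of the 12 heme synthesis genes 0 had an unadjusted p under 0.05 in either direction. Their median was -0.19, -0.46 without *Chd4-ECko* replicate 1 and 0.05 without replicate 3, so that the direction rested on replicate 3.

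All 19 genes tested of the stem and progenitor list had higher means in *Brg1/Chd4-ECdko*, where 6696 of all 12223 genes did. The median was 0.43, and 7 of 19 (36.8%) had an unadjusted p under 0.05, against 15.6% of all genes. *Cd48*, a surface protein of multipotent progenitors, had 5.11, 3.58 and 2.51 TPM in *Chd4-ECko* cells, against 7.698, 9.87 and 6.58 TPM in *Brg1/Chd4-ECdko*, a difference of 0.95 (standard error 0.24). *Runx1*, a transcription factor required for definitive blood stem cells, had 7.92, 8.02 and 4.87 TPM against 10.5, 16.3 and 12.7 TPM, a difference of 0.84 (standard error 0.25). Neither gene overlapped between the groups. Controls had 16.01, 9.67 and 15.8 TPM of *Runx1* and overlapped with the double knockout. The most abundant members, *Lmo2* and *Myb*, which encode regulators of early blood cells, overlapped, with differences of 0.01 and 0.32. With the GC correction the median was 0.33 and 5 members had an unadjusted p under 0.05, against 9.24% of all genes. Without *Chd4-ECko* replicate 1, 5 of 19 passed the adjusted threshold in the higher direction, against 22.1% of all genes. With the GC correction and without replicate 1, 1 of 19 passed, where 1043 of 12178 genes did, and the median was 0.26. Without replicate 3 the median was 0.21. The list's transcripts had a median GC content of 47.1%, against 50.2% over all genes.

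Among 28 myeloid genes, 0 had an unadjusted p under 0.05, where 21.8% of all genes did, with a median of -0.12. Quantile normalization gave 5 lower genes, where 1327 of 12223 genes were lower, and a median of -0.26. Without *Chd4-ECko* replicate 2 there were 3, where 466 of 12197 genes were lower. The GC correction gave 1, against 6.97% of all genes. Without replicate 1 or 3 there were 0, where 1959 of 12180 and 268 of 12192 genes were lower. *Lyz2*, the lysozyme of macrophages, had 181, 144 and 191 TPM in *Chd4-ECko* cells, against 127, 105 and 155 TPM in *Brg1/Chd4-ECdko*. *C1qb*, a complement chain made by macrophages, had 58.6, 40.6 and 61.98 TPM against 38.8, 21.2 and 47.7 TPM. *Mpo*, the myeloperoxidase of neutrophil precursors, had 132, 148 and 136 TPM against 137, 223 and 203 TPM, and *Ptprc*, the CD45 gene of blood cells, had 13.9, 6.52 and 4.48 TPM against 13.9, 18.4 and 10.3 TPM. All 4 overlapped between the groups, and *Chd4-ECko* replicate 1 was the library of its group closest to the double knockout for *Ptprc*.

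In the megakaryocyte and platelet list, 2 of 17 genes had an unadjusted p under 0.05, both higher. This is 11.8% of the list, below the 15.6% of all genes. *Fli1*, a transcription factor of megakaryocytes and endothelium, had 22.1, 22.5 and 11 TPM against 27.2, 41.4 and 34.9 TPM, a difference of 0.91 (standard error 0.33). *Rap1b*, a small GTPase of platelets, had 244, 236 and 126 TPM against 272, 336 and 359 TPM, a difference of 0.72 that was 0.20 after the GC correction. *Pf4*, the chemokine of platelet granules, had 455, 906 and 547 TPM against 472, 622 and 669 TPM and overlapped.

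Most hepatoblast genes had lower means in *Brg1/Chd4-ECdko*. Of 33 tested, 26 were lower, 8 of them (24.2%) with an unadjusted p under 0.05, against 6.19% of all genes, and 0 were higher at that threshold. The median was -0.23. *Apoa1*, the main protein of high density lipoprotein, had 2642, 2451 and 2675 TPM in *Chd4-ECko* cells, against 2146, 1597 and 1876 TPM in *Brg1/Chd4-ECdko*, with no overlap and a difference of -0.48 (standard error 0.12). *Ttr*, a carrier of thyroid hormone and retinol-binding protein, had 1274, 1248 and 1078 TPM against 988, 717 and 771 TPM, with no overlap and a difference of -0.55 (standard error 0.14). Controls were lower still for both, at 1295, 1397 and 1494.9 TPM of *Apoa1* and 623, 735 and 649.6 TPM of *Ttr*. *Alb*, the albumin gene, had 11825, 8192 and 7178 TPM against 9183, 6478 and 7241 TPM, which overlapped, as *Afp* did. Without *Chd4-ECko* replicate 1, *Apoa1* and *Ttr* passed with differences of -0.46 and -0.50 (limma adjusted p = 0.0186 and 0.0285). In that setting 3 of 33 were called lower and 1 higher, where 10.3% of all genes were called lower, so that the list had no larger share than all genes. The GC correction left a median of -0.19 and 6 lower genes with an unadjusted p under 0.05, against 6.97% of all genes. The summed TPM of the list was 41376 to 53461 in *Chd4-ECko*, 34193 to 45110 in *Brg1/Chd4-ECdko* and 25985 to 28931 in controls.

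The 19 coagulation and fibrinolysis genes, which hepatoblasts also secrete, had a median of -0.17. An unadjusted p under 0.05 was found for 3 of them in the lower direction and 0 in the higher one, or 15.8% lower against 6.19% of all genes. After the GC correction 8 of 19 were lower at that threshold, against 6.97% of all genes, with a median of -0.27. *Serpinf2*, which encodes α2-antiplasmin, the main plasma inhibitor of plasmin, had 576, 519 and 584 TPM in *Chd4-ECko* cells, against 465, 379 and 411 TPM in *Brg1/Chd4-ECdko*, with no overlap and a difference of -0.42 (standard error 0.13). *Proc*, the gene for the anticoagulant protein C, had 109, 88.7 and 93.2 TPM against 88.1, 66.2 and 69.6 TPM, with no overlap and a difference of -0.38 (standard error 0.12). The other was *F10*, coagulation factor X, named after its values were seen, with 258, 253 and 247 TPM against 203, 184 and 192 TPM. *Plg*, the gene for plasminogen itself, had 713, 553 and 539 TPM against 627, 440.1 and 516 TPM and overlapped. Without *Chd4-ECko* replicate 1 the list's median was 0.06, and without replicate 3 it was -0.24. With the GC correction and without replicate 1 the median was -0.21.

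Plasmin is the protease that dissolves fibrin and cuts matrix proteins, and the study asked about its activation in these livers. The 14 genes of the plasminogen activation list had a median of -0.0016. *Plat*, tissue plasminogen activator, had 5.06, 5.13 and 7.66 TPM in *Chd4-ECko* cells, against 5.03, 3.72 and 3.62 TPM in *Brg1/Chd4-ECdko*, with a narrow gap between the groups and a difference of -0.43 (standard error 0.18). *Plaur*, the receptor of urokinase, had 3.67, 3.21 and 2.88 TPM against 4.71, 3.89 and 4.402 TPM, with no overlap and a difference of 0.33 (standard error 0.20) and a limma adjusted p of 0.32. *Eno1*, a glycolytic enzyme that also binds plasminogen, had 856, 915 and 1228 TPM against 869, 1202 and 945 TPM. *Serpinf2* and *Plat* were the members with an unadjusted p under 0.05, 14.3% against the 6.19% of all genes that were lower.

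**Figure D4:**
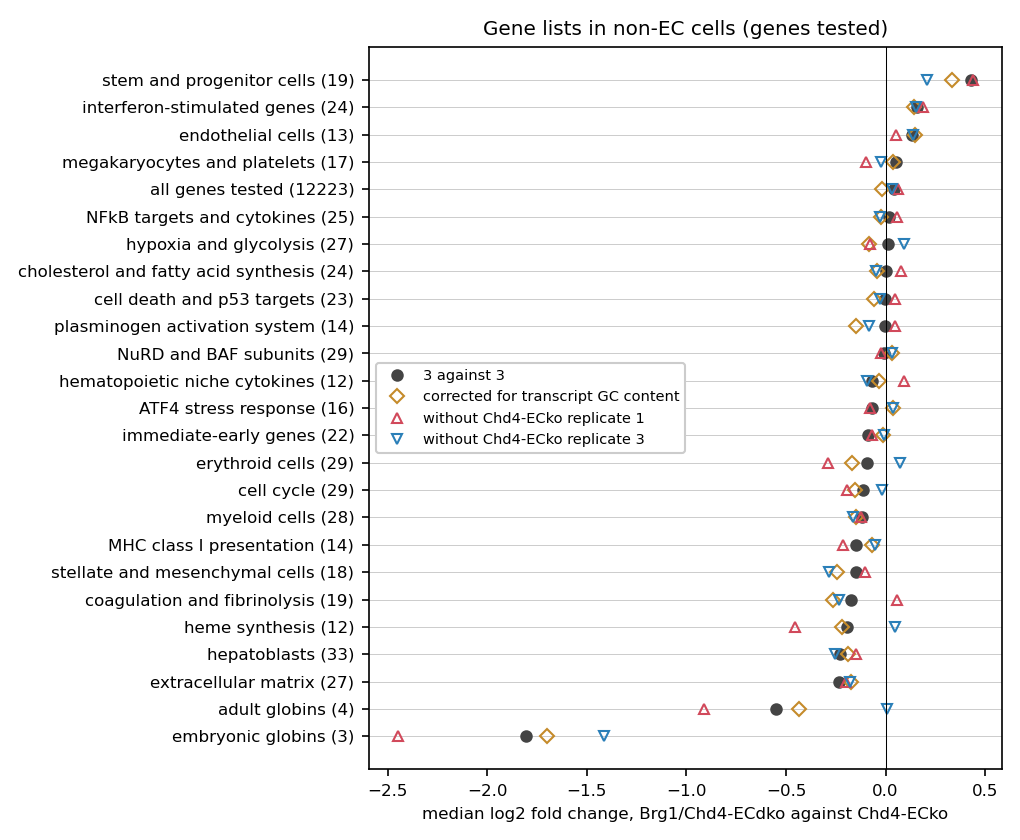
Median log2 fold change (x axis) of each gene list but the sex-linked one (y axis, genes tested in parentheses) with all 6 libraries, after correction for transcript GC content, and without *Chd4-ECko* replicate 1 or 3. Embryonic globins lie lowest and stem and progenitor genes highest under all 4, and several lists cross 0 with a library left out.

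The cytokine genes *Tnf*, *Il1b* and *Il6* were below 1 TPM in all 6 libraries. *Tnf* had 0.0951, 0.52 and 0.48 TPM in *Chd4-ECko* cells, against 0.27, 0.716 and 0.54 TPM in *Brg1/Chd4-ECdko* (two-sided exact permutation test of 3 against 3, p = 0.5, where the smallest p is 0.1). *Il1b* had 0.345, 0.251 and 0.116 TPM against 0.435, 0.144 and 0.87 TPM (exact p = 0.4), and *Il6* had 0.128, 0.211 and 0 TPM against 0.243, 0.161 and 0.121 TPM (exact p = 0.5). These genes overlapped between the groups and did not enter the model. *Icam1*, the leukocyte adhesion molecule, had 21.5, 21.3 and 19.9 TPM against 20.96, 16.7 and 19.2 TPM, a difference of -0.14 (95% confidence interval -0.64 to 0.37). *Vcam1* had 66.2, 44.7 and 36.4 TPM against 58.6, 44.6 and 58.5 TPM, a difference of 0.16 (-0.32 to 0.65). *Rela*, the p65 subunit of NFκB, had 33.9, 40.9 and 46.5 TPM against 37.6, 35.5 and 35.4 TPM, a difference of -0.15 (-0.42 to 0.13). All of these overlapped. Over 25 NFκB targets and cytokines the median was 0.02. *Nfkb1*, the p105 subunit gene, had a difference of 0.26. The 1 gene with an unadjusted p under 0.05, where 15.6% of all genes were higher and 6.19% lower, was *Tnfaip2*, a gene induced by TNF, with 132, 137 and 176 TPM against 127, 128 and 110.2 TPM and a difference of -0.27. When *Chd4-ECko* replicate 1 was left out, 6 of the list were higher and 2 lower at that threshold, where 3445 and 1959 of 12180 genes were. Quantile normalization gave 4 lower, where 1327 of 12223 genes were lower.

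Antiviral genes of the interferon list had a median of 0.16 over 24 genes (-0.00097 with quantile normalization), and 2 had a higher mean with an unadjusted p under 0.05, 8.33% against 15.6% of all genes. *Ifih1*, the RNA sensor MDA5, had 4.703, 1.18 and 1.06 TPM in *Chd4-ECko* cells, against 5.24, 4.47 and 3.96 TPM in *Brg1/Chd4-ECdko*. *Ifit2*, an interferon-induced antiviral gene, had 6.87, 3.73 and 3.603 TPM against 8.16, 9.71 and 7.29 TPM, with no overlap and a difference of 0.75 (standard error 0.20) that was 0.29 after the GC correction. The more abundant *Ifitm3* and *Ifi35* had differences of -0.01 and -0.14. The MHC class I list had a median of -0.15 over 14 genes, and 2 were lower at that threshold (14.3% against 6.19% of all genes). *H2-T22*, a nonclassical MHC class I gene, had 38.8, 36.9 and 41.9 TPM in *Chd4-ECko* cells, against 27.6, 15.3 and 18.9 TPM in *Brg1/Chd4-ECdko*, with no overlap and a difference of -0.94 (standard error 0.26). Controls had 11.9, 21.7 and 14.03 TPM. *H2-T23*, another nonclassical member, had 38.02, 31.02 and 35.9 TPM against 31.5, 22.9 and 21.8 TPM and overlapped in 1 library. *H2-K1* and *B2m*, which encode a classical heavy chain and the shared light chain, had differences of -0.18 and -0.04. Genes of the H2 family are alike in sequence and differ between mouse strains, and the mice were of mixed background.

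Stromal and matrix genes had lower medians in *Brg1/Chd4-ECdko*, -0.23 over 27 matrix genes and -0.15 over 18 stellate and mesenchymal genes. *Sparc*, a matrix protein that binds collagen, had 29.3, 24.3 and 30.8 TPM in *Chd4-ECko* cells, against 20.1, 20.1 and 17.4 TPM in *Brg1/Chd4-ECdko*, with no overlap and a difference of -0.52 (standard error 0.14). *Dcn*, the collagen-binding proteoglycan decorin, had 6.598, 6.32 and 6.88 TPM against 5.19, 3.44 and 3.44 TPM, with no overlap and a difference of -0.61 (standard error 0.16). *Col5a1*, a fibrillar collagen chain, and *Pdpn*, the mucin podoplanin, did not overlap either, with differences of -0.37 and -0.51. *Reln*, the signalling protein reelin, and *Vim*, vimentin, had differences of 0.13 and 0.01. *Fn1* and *Col18a1*, fibronectin and a basement membrane collagen, overlapped (-0.10 and -0.21). Counts at an unadjusted p under 0.05 were 2 of 27 and 2 of 18, all lower, which is 7.41% and 11.1% against 6.19% of all genes. These counts moved with the setting. Without *Chd4-ECko* replicate 2 they were 8 and 6, where 466 of 12197 genes were lower at that threshold. Quantile normalization gave 8 and 5, where 1327 of 12223 genes were lower. The GC correction gave 2 and 3, against 6.97% of all genes. Without *Chd4-ECko* replicate 1 the counts were 2 and 2, where 1959 of 12180 genes were lower. Without replicate 3 they were 2 and 1, where 268 of 12192 genes were lower. After the GC correction, *Sparc* had a difference of -0.47 and *Dcn* of -1.16.

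Residual endothelial transcripts differed in direction, with higher means in *Brg1/Chd4-ECdko* for 9 of 13 genes tested and lower means for 4. *Kdr* (ENSMUSG00000062960, chromosome 5 from 76093487 to 76139884), which encodes the VEGF receptor 2, had 3.08, 4.803 and 3.37 TPM in *Chd4-ECko* cells, against 8.37, 14.3 and 9.41 TPM in *Brg1/Chd4-ECdko*, with no overlap and a difference of 1.28 (standard error 0.36). Controls had 5.47, 3.11 and 4.898 TPM, close to *Chd4-ECko*, and *Brg1-ECko* had 6.47, 20.04 and 7.19 TPM. *Erg*, an endothelial transcription factor that blood progenitors also use, had 7.83, 5.06 and 3.31 TPM against 7.198, 14.2 and 10.3 TPM, a difference of 0.87 (standard error 0.29). Another gene with an unadjusted p under 0.05 was *Tie1*, an endothelial receptor named after its values were seen, at 3.29, 5.43 and 4.18 TPM against 5.25, 9.71 and 7.29 TPM. At that threshold 3 of 13 genes were higher and 0 lower, or 23.1% and 0%, against 15.6% and 6.19% of all genes. After the GC correction 4 were higher and 0 lower, against 9.24% and 6.97% of all genes. Quantile normalization gave 2 higher and 2 lower, where 1483 and 1327 of 12223 genes were. *Cdh5* had a lower mean, at -0.46 (standard error 0.33), and *Egfl7* and *Plvap*, the most abundant members, had differences of -0.09 and 0.13. The summed TPM of the 25 endothelial genes ranged from 104 to 114 in *Chd4-ECko* and from 106 to 137 in *Brg1/Chd4-ECdko*, and 13 of the 25 reached the level needed for the test, with a median difference of 0.13 (-0.02 with quantile normalization). In LSECs, *Kdr* was at 239.8, 214 and 259 TPM in *Chd4-ECko* embryos, against 227, 255 and 279 TPM in *Brg1/Chd4-ECdko*. Whether endothelial cells that escaped the beads had a part in the non-EC values was not tested.

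Genes of cell death, stress and growth showed opposite directions within their lists. Of 23 cell death and p53 target genes 5 were higher and 1 lower at an unadjusted p under 0.05, with a median of -0.00071. The shares were 21.7% and 4.35%, near the 15.6% and 6.19% of all genes. *Pmaip1*, the pro-apoptotic p53 target NOXA, had 5.08, 1.93 and 1.09 TPM in *Chd4-ECko* cells, against 6.65, 6.51 and 6.64 TPM in *Brg1/Chd4-ECdko*, a difference of 1.19 (standard error 0.36). *Ripk1*, a kinase of the TNF receptor pathway, had 24.3, 20.97 and 23.1 TPM against 26.9, 28.7 and 30.2 TPM, a difference of 0.32 (standard error 0.09) that was 0.11 after the GC correction. *Bax*, an abundant effector of apoptosis, overlapped, with a difference of -0.14. Among 16 genes of the ATF4 amino acid stress response the median was -0.07. *Trib3*, a pseudokinase that ATF4 induces, had 2.31, 3.28 and 3.802 TPM against 6.27, 6.56 and 4.66 TPM against 0.931, 1.84 and 1.58 TPM in controls, with no overlap and a difference of 0.73 (standard error 0.20) that was 0.84 after the GC correction. *Vldlr*, a lipoprotein receptor, and *Phgdh*, an enzyme of serine synthesis, had differences of 0.64 and 0.20. *Atf4* had 379.7, 417 and 423 TPM against 428, 410.3 and 398 TPM and overlapped.

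In the cell cycle list, 6 of 29 genes had an unadjusted p under 0.05 in the higher and 2 in the lower direction, and the median was -0.11. With 20.7% and 6.897%, the list lay near the 15.6% and 6.19% of all genes in the model of all libraries. With *Chd4-ECko* replicate 1 left out, 6 were called higher and 8 lower, against 22.1% and 10.3% of all genes. With the GC correction as well, 4 were called higher and 2 lower, where 1043 and 964 of 12178 genes were. Without replicate 2, 1 and 0 had an unadjusted p under 0.05, where 970 and 466 of 12197 genes did. *Mcm4*, a subunit of the replicative helicase, had 205, 179 and 157 TPM in *Chd4-ECko* cells, against 217, 240 and 240.1 TPM in *Brg1/Chd4-ECdko*, a difference of 0.37 that was -0.02 after the GC correction. *Top2a*, a topoisomerase of dividing cells, had 378, 257 and 195 TPM against 387, 444 and 346 TPM. *Pcna* and *Mcm3*, the most abundant members, had differences of -0.03 and -0.14. Of the hypoxia and glycolysis genes, 4 of 27 were higher and 1 lower at that threshold, or 14.8% and 3.704%, no more than the shares of all genes. With *Chd4-ECko* replicate 1 left out, 4 were called higher and 6 lower, against 22.1% and 10.3% of all genes. With the GC correction as well, 1 was called higher and 0 lower, where 1043 and 964 of 12178 genes were. *Ldha*, lactate dehydrogenase, had 1122, 1420.3 and 1736 TPM against 1152, 1244 and 1083 TPM. *Kdm3a*, a histone demethylase induced by hypoxia, had 30.3, 20.04 and 17.5 TPM against 30.7, 43.4 and 29.95 TPM. *Ero1a*, an oxidase of protein folding, had 52.6, 37.7 and 32.6 TPM against 55.8, 70.96 and 52.1 TPM. In these 3 genes *Chd4-ECko* replicate 1 lay within the range of the double knockout, and replicates 2 and 3 lay outside it on 1 side.

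A niche factor and a gene of sterol synthesis were also higher in *Chd4-ECko* replicate 1 than in replicates 2 and 3. *Kitl*, the stem cell factor that binds KIT on blood progenitors, had 31.9, 8.86 and 4.66 TPM in *Chd4-ECko* cells, against 28.3, 26.1 and 13.1 TPM in *Brg1/Chd4-ECdko*, a difference of 0.87 (standard error 0.62). *Igf2*, a growth factor of fetal liver, had 1471, 965 and 783 TPM against 1235, 893 and 959.5 TPM. *Dlk1*, a NOTCH ligand of hepatoblasts, and *Hgf*, the hepatocyte growth factor, had differences of -0.17 and 0.51. Of 12 niche cytokines 0 had an unadjusted p under 0.05. *Idi1*, an enzyme of cholesterol synthesis, had 237, 99.9 and 48.1 TPM against 252, 247 and 211 TPM, a difference of 1.16 (standard error 0.43). *Fdps* and *Scd2* had differences of -0.20 and 0.02, and the median of the 24 synthesis genes was 0.0026. *Klf2*, a flow-responsive transcription factor counted among the immediate-early genes, had 8.02, 10.3 and 9.28 TPM against 7.59, 3.07 and 5.11 TPM, with no overlap and a difference of -0.77 (standard error 0.24), and was the 1 gene of 22 in its list with an unadjusted p under 0.05, or 4.55% against 6.19% of all genes (4 genes with quantile normalization, where 1327 of 12223 genes were lower). *Jund* and *Myc*, its most abundant members, had differences of -0.27 and -0.02. Of 29 NuRD and BAF subunits 5 were higher and 1 lower at that threshold, with a median of -0.01. Their shares, 17.2% and 3.45%, were close to or below those of all genes. After the GC correction 7 were higher at that threshold, against 9.24% of all genes. Calls without *Chd4-ECko* replicate 1 were 6 higher and 7 lower, against 22.1% and 10.3% of all genes. With both changes 6 were called higher and 3 lower, where 1043 and 964 of 12178 genes were. The list included *Hdac2*, the deacetylase of NuRD at 112, 77.1 and 51.8 TPM against 113, 128 and 119 TPM, and *Arid2*, a subunit of the PBAF form at 26.1, 17.6 and 13.1 TPM against 26.5, 33.5 and 24.2 TPM. *Mbd3* and *Rbbp7*, further NuRD subunits, had differences of -0.21 and 0.20.

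The genes with the smallest p-values were led by a pair that was low in controls. *Hapln1* (ENSMUSG00000021613, chromosome 13 from 89686581 to 89759950), which encodes a link protein of hyaluronan matrix, had 0.791, 0.835 and 0.495 TPM in *Chd4-ECko* cells, against 5.42, 15.1 and 3.82 TPM in *Brg1/Chd4-ECdko*. Controls had 0.54, 0.21 and 0.533 TPM and *Brg1-ECko* 2.71, 6.33 and 3.91 TPM, so that all 6 libraries of embryos with Cre and *Brg1* fl/fl lay above all 6 others. The difference was 2.22 (standard error 0.38), with a 95% confidence interval of 1.38 to 3.06 and a limma adjusted p of 0.217. It was the 1 gene called when the model held all 24 libraries, a setting chosen after seeing the data (limma adjusted p = 0.0171). *Tnnt2* (ENSMUSG00000026414, chromosome 1 from 135763738 to 135780315), the gene for cardiac troponin T, had 1.66, 5.45 and 2.905 TPM in *Chd4-ECko*, 10.1, 24.5 and 13.6 TPM in *Brg1/Chd4-ECdko* and 1.22, 1.04 and 1.48 TPM in controls. Its difference was 1.98 (standard error 0.35) with an adjusted p of 0.217, and 2.08 after the GC correction. LSECs held more of both transcripts. *Hapln1* was at 20.8, 21.5 and 18.5 TPM in *Chd4-ECko* LSECs against 19.9, 34.99 and 33.04 TPM in those of the double knockout, and *Tnnt2* at 14.9, 24.6 and 20.7 against 21.8, 52.95 and 41.3 TPM. The difference between the fractions had an adjusted p of 0.781 for both.

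The 10 higher genes with the smallest p-values all had separate groups, which a choice by p favours. *Xlr4a*, an X-linked imprinted gene, had 2.42, 1.32 and 0.541 TPM against 3.81, 6.23 and 7.36 TPM, and the predicted gene *Gm49358* had 2.74, 1.902 and 0.376 TPM against 6.004, 6.55 and 5.41 TPM, with differences of 1.52 and 1.5. *Zadh2*, an oxidoreductase gene, had 19.8, 19.1 and 17.98 TPM against 27.9, 27.7 and 26.8 TPM, the tightest of all, with a difference of 0.51 (standard error 0.09). The zinc finger genes *Zfp367* and *Zfp169* were at 1.11 and 0.76, the acetylcholine receptor chaperone *Ric3* at 0.74, *Cibar1* at 0.71 and the splicing regulator *Arglu1* at 0.49. After the GC correction *Cibar1* was at 0.16 and *Arglu1* at 0.08, and the other 6 of these genes kept at least 0.33.

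The 10 leading genes of the lower direction were separate between the groups too. *Rims4* (ENSMUSG00000035226, chromosome 2 from 163701671 to 163761141), related to regulators of synaptic vesicle release, had 33.4, 27.7 and 28.8 TPM in *Chd4-ECko* cells, against 14.7, 9.34 and 10.6 TPM in *Brg1/Chd4-ECdko*, a difference of -1.32 (standard error 0.29). Controls had 8.67, 7.29 and 3.36 TPM. *Ccl9* (ENSMUSG00000019122, chromosome 11 from 83463745 to 83473161), a chemokine of myeloid cells, had 24.01, 23.98 and 20.4 TPM against 15.5, 14.4 and 15.4 TPM, a difference of -0.56 (standard error 0.12), with controls at 15.1, 11.9 and 15.3 TPM. *Tuft1* had 17.95, 13.7 and 14.6 TPM against 10.4, 6.22 and 4.92 TPM, and *Igfals*, the acid-labile subunit that carries insulin-like growth factors in plasma, had 3.68, 2.79 and 4.13 TPM against 1.46, 2.09 and 1.85 TPM. *Car14*, a membrane carbonic anhydrase, had 33.9, 35.3 and 35.3 TPM against 26.2, 23.5 and 21.7 TPM, and *Tcn2*, the plasma carrier of vitamin B12, had 22.05, 21.7 and 22.7 TPM against 15.6, 14.5 and 15.4 TPM. *Raet1d*, a ligand of the NKG2D receptor of natural killer cells, was at -0.73, the mitochondrial ribosomal gene *Mrps11* at -0.59, the proteasome assembly gene *Psmg4* at -0.42 and *Slc35c2* at -0.38. The log2 fold change of *Ccl9* was -0.63 to -0.52 over the 6 libraries left out in turn (but -1.0 after the GC correction and -1.21 with that correction and without *Chd4-ECko* replicate 1), that of *Tcn2* -0.54 to -0.49 and that of *Rims4* -1.5 to -1.19. For the higher gene *Zfp367* the range was 0.83 to 1.46.

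**Figure D5:**
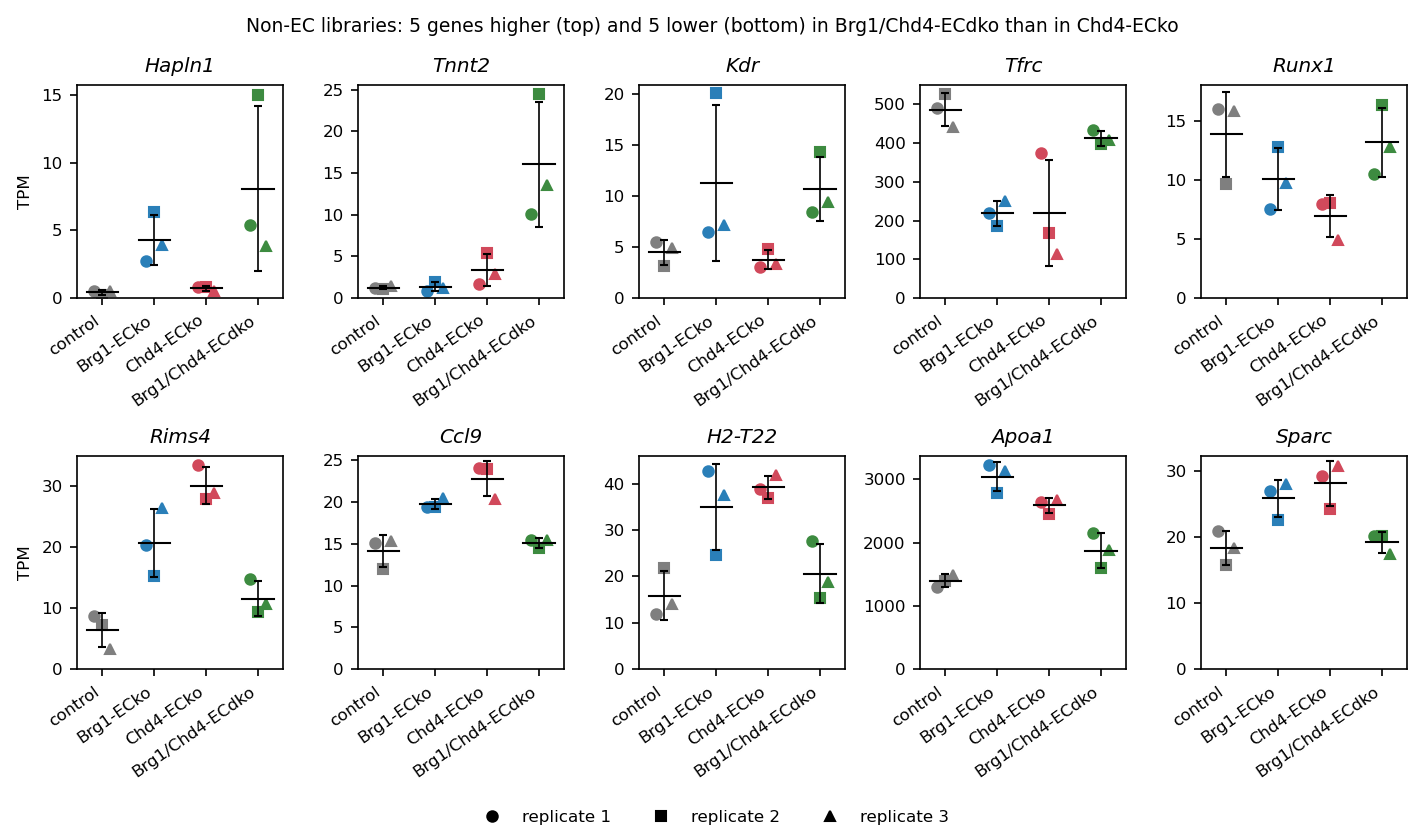
TPM of 10 genes in the 12 non-EC libraries by genotype, with the group mean (line) and SD (bars, n = 3). The top row shows genes with higher and the bottom row genes with lower means in *Brg1/Chd4-ECdko* than in *Chd4-ECko*, none of them with an adjusted p under 0.05 with all libraries. For *Tfrc*, *Chd4-ECko* replicate 1 lies at 374 TPM near the double knockout, while *Rims4*, *Ccl9* and *H2-T22* are separate in all replicates.

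The same contrast was set against LSECs in a model of all 24 libraries. Of 13775 genes, 5 (0.0363%) had a limma adjusted p under 0.05 for the difference between the fractions, and 757 (5.50%) had an unadjusted p under 0.05. With a pseudocount of 0.1 there were 0. All 5 entered the test through LSECs, so that with a pseudocount of 1 the term restates their difference in LSECs, and a response in non-EC cells could not be measured. They were lower in *Brg1/Chd4-ECdko* than in *Chd4-ECko* LSECs and were nearly absent from non-EC cells, where none reached 1 TPM. *Thy1*, a surface glycoprotein, was at 13.1, 13.6 and 12.4 TPM in *Chd4-ECko* LSECs against 2.74, 2.902 and 3.03 TPM in *Brg1/Chd4-ECdko* LSECs, and at 0.508, 0.634 and 0.658 TPM against 0.618, 0.637 and 0.48 TPM in non-EC cells. *Sncg*, γ-synuclein, was at 33.3, 31.4 and 31.4 TPM against 9.23, 11.1 and 14.1 TPM in LSECs. *Prl3b1*, a placental lactogen, was listed at 0 in all 12 non-EC libraries. *Cpa1*, a pancreatic carboxypeptidase, was at 9.89, 7.51 and 6.29 TPM against 2.28, 1.46 and 1.11 TPM in LSECs, and *Cyp4b1*, a cytochrome P450, at 6.54, 7.34 and 4.72 TPM against 1.76, 1.57 and 2.69 TPM. None of the 5 entered the model of non-EC cells. For each of *Hbb-y*, *Kdr*, *Hapln1*, *Tnnt2*, *Rims4* and *Ccl9*, the difference between the fractions had a limma adjusted p of at least 0.781.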

How the data were processed

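Gene levels were the TPM values that the authors deposited as 1 table, made from paired NovaSeq reads with CLC Genomics Workbench on mouse genome GRCm39 (mm39). TPM sum to the same total in every library, so that depth is unknown and small values carry an unknown counting error. The 3 libraries of a group are separate embryos, an LSEC and a non-EC library may share an embryo, and all are labelled as 1 batch.

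Values were taken as log2(TPM + 1), and a gene was kept where 3 or more of the 12 non-EC libraries reached 1 TPM. The contrast was fitted with limma 3.58.1 in R 4.3.3 on all 12 libraries with a trended prior, with Benjamini-Hochberg adjustment over all genes tested, and the procedure was tested on simulated data. The difference between fractions was an interaction term over 24 libraries. Genes below the filter had an exact permutation test, and correlations with GC content and transcript length used scipy 1.17.1. GC content and promoters came from the GENCODE M39 annotation. Tables and figures used python 3.11.15, numpy 2.4.6, pandas 2.3.3 and matplotlib 3.10.9.

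The genes named were the 10 higher and 10 lower genes with the smallest p, the 5 with the smallest p between fractions, up to 4 members of each of 25 lists (2 by p, 2 by TPM) and 12 genes the study turns on, with exceptions stated. Of these, 3 genes are not reported here, though the counts and medians of lists include them. Members and lists were chosen with earlier results of these data known. Alternatives were the pseudocount (0.1), the filter, quantile normalization, no trend, a replicate block, a Y-linked covariate, the 6 libraries alone and each library left out. GC and length corrections (loess, span 0.3) and a model of 24 libraries were added after seeing the data.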

Additional observations from a re-analysis of the deposited data

Results flagged for a closer look

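For 5 genes the interaction term of limma, which compares the contrast of *Brg1/Chd4-ECdko* with *Chd4-ECko* between non-EC cells and LSECs, had an adjusted p under 0.05. Their levels in non-EC cells were below 1 TPM throughout, so that the term restates a difference in LSECs and shows no response of non-EC cells. The difference of the log2 fold changes, non-EC cells minus LSECs, was 1.87 for *Prl3b1*, 1.7 for *Sncg*, 1.83 for *Thy1*, 1.77 for *Cpa1* and 1.31 for *Cyp4b1*. Limma adjusted p-values were 0.00229, 0.00326, 0.00573, 0.00656 and 0.02. In each of them all 3 *Brg1/Chd4-ECdko* LSEC libraries lay below all 3 *Chd4-ECko* LSEC libraries. With a pseudocount of 0.1 in place of 1, all 5 had an adjusted p of 0.785, the highest over the alternatives, and the lowest were 0.000248 for *Prl3b1* and 0.00435 for *Cyp4b1*. *Cyp4b1* had an adjusted p under 0.05 in 11 of 19 alternatives. Among the alternatives in which they were tested, the other 4 genes lost the call with the pseudocount of 0.1 alone. *Prl3b1* was tested in 16 of them, and fell below the filter in others.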

How the results depend on the processing

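The number of genes with an adjusted p under 0.05 ranged from 0 to 3943 and that of DEGs from 0 to 861 when 1 library was left out, and was above 0 only without *Chd4-ECko* replicate 1. With the GC correction and without that library they were 2007 and 220. Without a filter, 4 genes passed (*Gzmf*, *Tbx1*, *Gtsf1l* and *Efhd1*, chosen by this setting alone), none as a DEG. With the 6 libraries alone 1 gene passed (*Hmga1b*), with the GC correction and a replicate block 1 (*Tnnt2*), and with 24 libraries in the model 1 (*Hapln1*), each also as a DEG. The other settings gave 0. Quantile normalization moved the median of all genes from 0.04 to -0.06 and the genes with an unadjusted p under 0.05 to 1483 higher and 1327 lower, so that the excess of higher genes depends on the scaling. The difference between fractions, called for 5 genes in the model described, was called for 0 genes with a pseudocount of 0.1, for 1 with a mean of at least 5 TPM, for 7 with the embryo as a random block and for 3 to 159 with 1 library left out, the most without non-EC *Chd4-ECko* replicate 1. The causes were not tested.

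Of 112 named genes tested, 36 had the other sign under some of the 24 settings, among them *Hbb-bs* (0.60 without *Chd4-ECko* replicate 3). In 3 of them both values were larger than their standard errors. These were *Mcm4* (-0.13) with the GC correction without *Chd4-ECko* replicate 1, *Rbbp7* in that setting (-0.15) and with the GC correction without *Brg1/Chd4-ECdko* replicate 3 (-0.12), and *Hgf* in the first setting (-0.32) and with GC and length corrected (-0.25). Without *Chd4-ECko* replicate 1, 61 of the 112, which were partly chosen by small p, passed the threshold, where 32.4% of all genes did. Medians of 12 of the 25 lists moved by more than the spread between replicates under some setting.

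Replicate numbers were not taken as pairs, since the correlations of same-numbered samples were 0.31, 0.042 and 0.40, and not every sample correlated best with its own number. With the replicate number as a block, 0 genes passed and 5 differed between the fractions, as without the block. With unknown depth, levels under 1 TPM have no counting error that could be given.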
